A study of Mus musculus with 8 samples.

Results

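The 40 genes described here build ribosomes in the nucleolus. They were chosen by symbol, as the rows that name RNA polymerase I and its factors (8 genes), the proteins of box C/D (3 genes) and box H/ACA (5 genes, with *Nolc1*) small nucleolar RNPs, abundant nucleolar proteins (4 genes), and the assembly factors of the large (10 genes) and small (10 genes) ribosomal subunits. They are 40 of the 41325 rows of the expression table, and each of them had an RPKM (reads per kilobase of exon model and per 1000000 mapped reads) over 1 in at least 1 library. No measured value entered the rule, although the list was drawn up with earlier results of these data known. Their mRNA was followed in C3H10T1/2 cells, multipotent mouse mesenchymal stem cells (MSCs) that become adipocytes upon hormonal induction. RNA-seq was carried out on control cells (shControl, labelled as wild type) and on 3 lines that stably expressed an shRNA against *Kdm4d*, *Nfib* or *Kmt2a*, which encodes MLL1 (shKDM4D, shNFIB and shMLL1). Each line was sequenced at day 0, when the cells had been confluent for 2 days, and at day 5. Insulin, dexamethasone and isobutylmethylxanthine (MDI) were added at day 0 and kept until day 2. Insulin alone followed for 2 days, and then medium with serum but without these additions. With 1 library per line and day there were 8 libraries, and no line was repeated within a day. A ratio between 2 libraries therefore carries no p-value, and the 95% intervals beside the log2 ratios cover counting error only. The 4 lines do repeat the step from day 0 to day 5, and that step was tested over them. The knockdown lines were puromycin-resistant clones made with the plasmid pLKO.1, so a difference between lines and a difference between clones cannot be told apart. Which clone of each line was sequenced, and whether shControl cells carry a control shRNA or are the parental cells, is not given in the sources used here, so a ratio to shControl cells may also hold the effect of the vector and of selection.

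A ribosome starts in the nucleolus, where RNA polymerase I, guided by UBF, by the SL1 complex and by the factor TIF-IA, transcribes the long precursor of most ribosomal RNA (rRNA). Small nucleolar RNPs then modify this precursor, with box C/D particles guiding 2′-O-methylation and box H/ACA particles guiding pseudouridylation. Assembly factors fold and cut it into the small and the large subunit. Growing and dividing cells make many ribosomes, and MYC is a well-known activator of the genes for these steps.

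The mapped reads recovered from the RPKM values ranged from 15800000 to 38200000 per library. A member was covered by 68 to 96086 reads in a library, and 3 reads on a gene with 1 kb of exons corresponded to an RPKM between 0.0785 in the deepest and 0.189 in the shallowest library. *Nfib* had an RPKM of 9.92 at day 0 and 17 at day 5 in shControl, 8.10 and 10.3 in shMLL1, 2.31 and 3.38 in shNFIB and 11.5 and 23.0 in shKDM4D cells. *Kmt2a* had an RPKM of 5.17 at day 0 and 5.27 at day 5 in shControl, 2.00 and 1.63 in shMLL1, 6.33 and 3.74 in shNFIB and 4.68 and 4.89 in shKDM4D cells. Both were thus lowest in the line made against them, while *Kdm4d* stood between 0.0179 and 0.235 in the 8 libraries and was too thinly covered to show the knockdown at day 0. The mesenchymal genes *Vim*, *Col1a1*, *Col1a2* and *Pdgfrb* were abundant in all 8 libraries. *Thy1*, a mesenchymal surface marker, had an RPKM of 25 at day 0 and 22.6 at day 5 in shControl, 11.8 and 11.1 in shMLL1, 0.0179 and 0.0632 in shNFIB and 0.0171 and 0.139 in shKDM4D cells. The shKDM4D and shNFIB lines thus stood apart from the other lines by this marker on both days. *Ly6a*, another mesenchymal marker, had an RPKM of 172 at day 0 and 136 at day 5 in shControl and 81.5 and 927 in shMLL1 cells. It had 90.6 and 340 in shNFIB and 191 and 109 in shKDM4D cells. The markers *Eng* and *Cd44* ranged from 6.47 to 17.2 and from 15.7 to 40.2 over the 8 libraries. The summed RPKM of 8 adipocyte markers reached 831 in shControl cells at day 5, against 39.1, 12.1 and 12.5 in shKDM4D, shNFIB and shMLL1 cells. The 8 markers of blood, endothelium, epithelium and macrophages summed to between 0.518 and 1.79, and 3 to 6 of them were at 0 in a library.

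The genes of ribosome biogenesis were lower at day 5 than at day 0 in all 4 lines. In shControl cells 38 of the 40 members were lower at day 5, against 48% of all expressed genes (11513 whose RPKM passed 1 somewhere), and the median log2 ratio of day 5 to day 0 was -0.78 for the members and 0.03 for all genes. Past the 2-fold limit were 14 of the 40 members (35%), against a background of 8.57% of all genes. The background past 1.5-fold was 17.5%, and 27 members (67.5%) were that much lower. In shKDM4D cells 38 members were lower (background 47.9%), 7 of them past 2-fold (background 8.46%) and 27 past 1.5-fold (background 16.8%), with a median of -0.79 against 0.03 for all genes. In shMLL1 cells 38 members were lower (background 40.9%), 11 past 2-fold (background 6.9%) and 25 past 1.5-fold (background 15.6%), with a median of -0.77 against 0.17. The change was smaller in the shNFIB line on this scale. There 34 members were lower (background 43.5%), but only 3 past 2-fold (background 4.97%) and 8 past 1.5-fold (background 12.6%), and the median was -0.33 against 0.10 for all genes. The order of the lines depended on the scale. On the ratio to *Gapdh* the medians were -0.90 in shNFIB and -0.32 in shKDM4D cells, and 15 and 0 members were past 2-fold lower. *Gapdh* itself went from 159 to 235 in shNFIB cells and from 326 to 236 in shKDM4D cells. This scale also moves the median of all genes, by -0.56 in shNFIB and 0.47 in shKDM4D cells. The shares of all genes past 2-fold on it are not given here, so the counts on this scale have no background. No member was more than 2-fold higher at day 5 in any line, while 13%, 12.8%, 12.6% and 20.4% of all genes were in shControl, shKDM4D, shNFIB and shMLL1 cells.

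**Figure D1:**
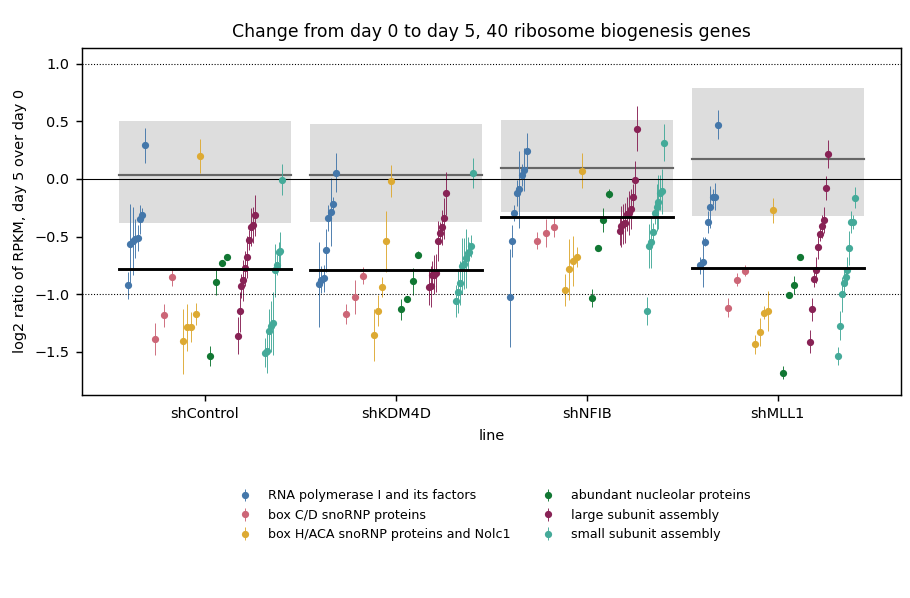
The log2 ratio of RPKM at day 5 to day 0 (y axis) for the 40 genes in each line (x axis), with points coloured by role, error bars for the 95% counting interval and a black line at the members' median; the grey box spans the quartiles of all expressed genes around their median, and dotted lines mark 2-fold. The members lie mostly below the grey boxes in shControl, shKDM4D and shMLL1 cells, with medians of -0.78, -0.79 and -0.77, and nearer to 0 in shNFIB cells (-0.33).

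The change from day 0 to day 5 was tested over the 4 lines with limma, on log2(RPKM + 1) of all expressed genes and with line as a block (3 residual degrees of freedom), a test that was added after the values had been seen. It treats the lines as repeats of one step, although 3 of them carry a knockdown. At an adjusted p under 0.05, 32 of the 40 members (80%) were lower at day 5 and none higher, against 20.7% lower and 28.1% higher over all genes. The calls took in 4 of the 8 genes of RNA polymerase I, all 3 box C/D genes, 4 of the 5 box H/ACA genes, all 4 abundant nucleolar proteins, 8 of the 10 large subunit and 9 of the 10 small subunit factors. *Dkc1* had the smallest adjusted p by limma, 0.00105, with a mean change of -1.12 (SE 0.0977) on this scale, and *Ddx21* the largest mean change, -1.29 (SE 0.129, limma adjusted p = 0.00136), and both were lower in 4 of 4 lines. The 8 members that did not pass were *Taf1b* (0.24, limma adjusted p = 0.0640), *Polr1e* (-0.21), *Taf1d* (-0.33), *Polr1c* (-0.28), *Wdr12* (-0.24), *Utp4* (0.04), *Nip7* (0.05) and *Nop10* (-0.00). With a line left out in turn between 25 and 31 members were lower, against 14.9% to 18% of all genes. On the ratio to *Gapdh* 22 were, against 12% of all genes.

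Of the members, 34 (85%) were lower at day 5 in all 4 lines, against 27.9% of all genes, and between 31 and 35 were on the other scales tried. For 23 of them (57.5%) even the lowest of the 4 day 0 libraries was above the highest of the 4 day 5 libraries, which was the case for 15.1% of all genes. *Taf1b* alone was higher at day 5 in all 4 lines (36.6% of all genes were), although it was lower in shNFIB cells on the ratio to *Gapdh* (-0.32) and in shKDM4D cells without the rRNA-like rows (-0.02). Relative to each gene's own mean over the 8 libraries, the median log2 level of the members was 0.21 in shControl, 0.68 in shMLL1, 0.28 in shNFIB and 0.15 in shKDM4D cells at day 0. At day 5 it was -0.59, -0.06, -0.14 and -0.52 in the same order. The shMLL1 library of day 0 was the highest of the 8 for 34 members, and the shControl library of day 5 the lowest for 24 and the shKDM4D library of day 5 for 10. Fewer cells that make ribosomes and less of this mRNA in each cell cannot be told apart in these bulk libraries.

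**Figure D2:**
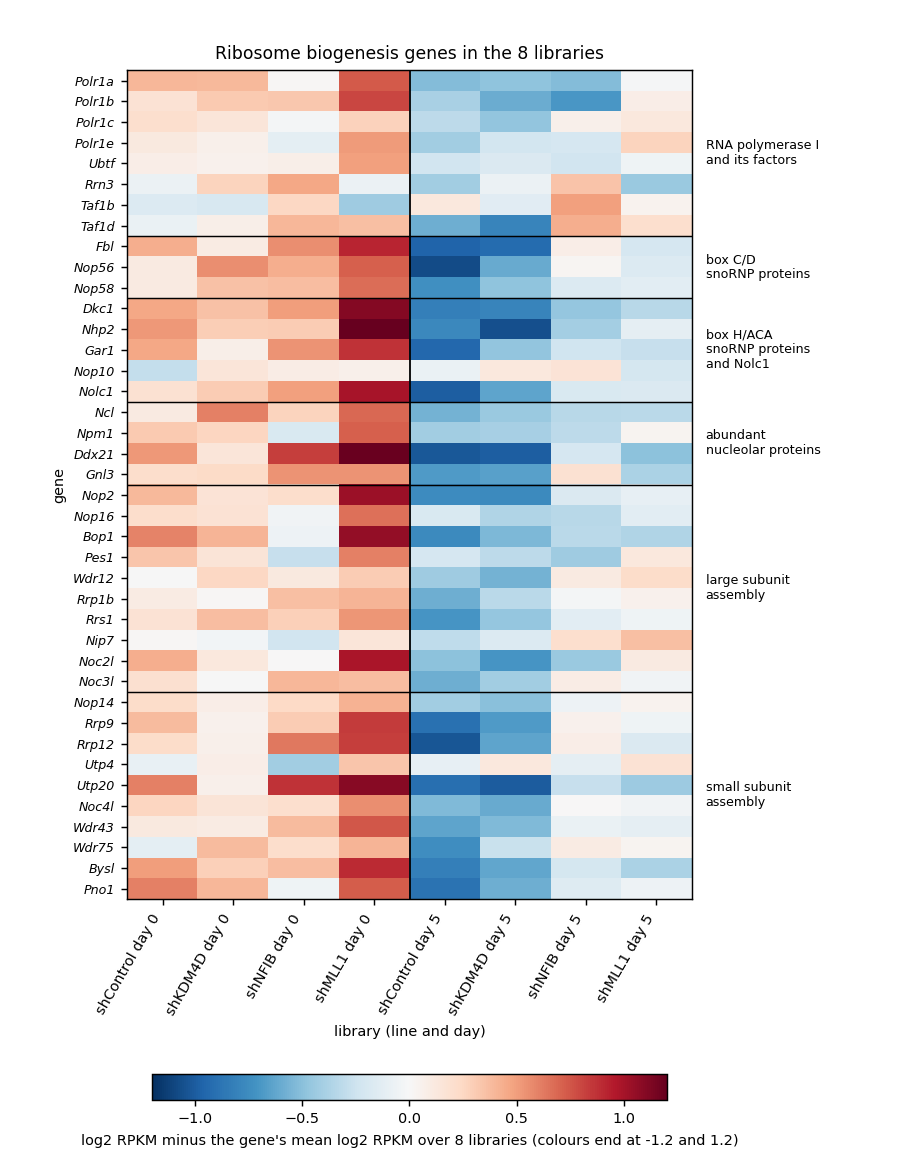
The log2 RPKM of each of the 40 genes (rows, grouped by role) in the 8 libraries (columns, day 0 left of the black line), after its own mean over the 8 libraries was taken away; red is above and blue below that mean. The shMLL1 column of day 0 is the reddest (median 0.68), the shControl and shKDM4D columns of day 5 are the bluest (-0.59 and -0.52), and *Taf1b*, *Nop10* and *Utp4* do not follow the rest.

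Promoters are shown for some of the members because most of these genes were lower together at day 5. RefSeq promoter windows (GRCm38.p6, from 250 bases before to 50 bases after the start) were at hand for 35 of the 40 members. A gene with several annotated starts has several windows, so that these 35 genes have 44, and a gene was counted as holding a motif where any of its windows did. In each role group the most abundant member with a searched motif was taken, and the 4 most abundant of these are printed, namely *Ncl* (chr1:86359406-86359705, minus strand), *Wdr43* (chr17:71615965-71616264, plus strand), *Ubtf* (chr11:102319543-102319842, minus strand) and *Pes1* (chr11:3963725-3964024, plus strand). *Ubtf* has 6 windows, of which the first listed with a match is shown, and the others have 1. They run 5′ to 3′ along the gene, and capitals mark matches, on either strand, to the GC box GGGCGG, the E-box CACGTG bound by MYC and its partners, or the TATA box TATAAA:
Ncl: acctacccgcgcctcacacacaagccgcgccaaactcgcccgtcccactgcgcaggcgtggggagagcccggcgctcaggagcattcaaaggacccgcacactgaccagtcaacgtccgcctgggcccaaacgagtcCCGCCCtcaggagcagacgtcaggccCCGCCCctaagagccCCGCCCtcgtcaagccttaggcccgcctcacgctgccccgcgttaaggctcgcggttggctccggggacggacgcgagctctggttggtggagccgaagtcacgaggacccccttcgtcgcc
Wdr43: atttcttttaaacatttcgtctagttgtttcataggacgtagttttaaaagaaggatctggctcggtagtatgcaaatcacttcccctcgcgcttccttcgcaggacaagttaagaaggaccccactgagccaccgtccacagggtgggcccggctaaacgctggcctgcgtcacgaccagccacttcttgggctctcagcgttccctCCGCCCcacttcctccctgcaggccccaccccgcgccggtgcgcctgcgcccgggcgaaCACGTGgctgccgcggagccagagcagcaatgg
Ubtf: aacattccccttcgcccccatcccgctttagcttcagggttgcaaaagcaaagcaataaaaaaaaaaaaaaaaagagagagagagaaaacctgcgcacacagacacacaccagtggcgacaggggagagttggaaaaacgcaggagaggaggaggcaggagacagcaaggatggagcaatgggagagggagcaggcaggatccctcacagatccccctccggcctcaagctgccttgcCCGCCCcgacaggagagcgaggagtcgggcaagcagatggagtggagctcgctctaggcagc
Pes1: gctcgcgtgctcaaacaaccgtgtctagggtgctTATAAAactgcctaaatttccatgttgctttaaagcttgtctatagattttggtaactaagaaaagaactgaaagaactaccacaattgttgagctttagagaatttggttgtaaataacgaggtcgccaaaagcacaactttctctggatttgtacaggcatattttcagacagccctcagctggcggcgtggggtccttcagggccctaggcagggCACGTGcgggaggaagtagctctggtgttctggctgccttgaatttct
The *Ncl* window held 3 GC boxes. The windows of *Wdr43* and *Pes1* each held an E-box just after the start. An E-box was in a window of 7 of the 35 members (20%), in 12.0% of the 8881 expressed genes with a window, and in 8.09% of all 27025 genes with one. The GC box was in 27 members (77.1%) and 70.2% of the expressed genes. The ETS motif CCGGAAGT was in 8 members (22.9%) against 9.83%, the NRF1 motif GCGCATGC in 2 (*Pno1* and, in a window not shown, *Ubtf*; 5.71%) against 6.35%, and the TATA box in 2 (5.71%) against 8.65%. The YY1 motif AAGATGGC was in none of the 35 members and in 5.63% of the expressed genes. Counted by window, the E-box was in 7 of 44 (15.9%) against 10.1% of 11324 windows of expressed genes, and the ETS motif in 9 (20.5%) against 8.52%. The median change in shControl cells was -0.75 for the 7 members with an E-box and -0.73 for the 28 without one. It was -0.53 for the 8 members with the ETS motif against -0.77 for the 27 without it, and -0.68 for the 27 with a GC box against -1.10 for the 8 without it. A match of letters is a description and does not show that a factor binds.

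Another feature that was not used in the choice is that some members carry snoRNA genes in their own introns. In the GENCODE M21 annotation, 7 of the 40 members (17.5%) enclosed at least 1 snoRNA gene on the same strand, 27 snoRNA genes in all, against 1.98% of the 10997 expressed protein coding genes. These were *Taf1d* with 8, *Nop56* with 5, *Nop58* with 4, *Ncl*, *Gnl3* and *Wdr43* with 3 each, and *Dkc1* with 1. The host genes had a median change of -0.85 in shControl cells, and the 33 other members one of -0.77. The medians of hosts and others were -0.89 and -0.69 in shKDM4D, -0.46 and -0.30 in shNFIB and -0.88 and -0.68 in shMLL1 cells. This difference was not tested.

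RNA polymerase I and its factors had the group median nearest to 0 in each line. Of these 8 genes 7 were lower at day 5 in shControl cells, none past 2-fold, and their median was -0.51 in shControl, -0.31 in shMLL1, -0.11 in shNFIB and -0.48 in shKDM4D cells. *Ubtf* (chr11:102304560-102319742), which encodes UBF, the factor that keeps rRNA genes open, was the most abundant of them, with an RPKM of 34.5 at day 0 and 27.8 at day 5 in shControl, 45.8 and 31.4 in shMLL1, 34.2 and 27.9 in shNFIB and 33.8 and 29.0 in shKDM4D cells. Its 4 values at day 5 all lay below its 4 values at day 0, although by little, with a log2 ratio of -0.31 (95% interval -0.37 to -0.25) in shControl cells. *Polr1b* (chr2:129100995-129126594), the gene of the second-largest subunit, had the lowest RPKM, 1.36 at day 0 and 0.918 at day 5 in shControl, 2.09 and 1.27 in shMLL1, 1.5 and 0.739 in shNFIB and 1.5 and 0.797 in shKDM4D cells. It was the 1 gene of this group past 2-fold in a line, with a ratio of -1.02 (-1.45 to -0.61) in shNFIB cells against -0.57 (-0.92 to -0.22) in shControl cells.

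The factors that bring the polymerase to the promoter differed in direction. *Taf1b* (chr12:24498359-24558539), a subunit of SL1, had an RPKM of 10.7 at day 0 and 13.1 at day 5 in shControl, 8.88 and 12.3 in shMLL1, 14.2 and 16.8 in shNFIB and 10.5 and 10.9 in shKDM4D cells. It was the highest of the members in shControl cells, with a log2 ratio of 0.29 (0.14 to 0.44), and in shMLL1 cells, with 0.47 (0.34 to 0.60), while in shKDM4D cells the interval of 0.05 (-0.12 to 0.22) included 0. *Taf1d* (chr9:15306214-15316991), another SL1 subunit, had an RPKM of 8.07 at day 0 and 5.66 at day 5 in shControl, 10.9 and 9.78 in shMLL1, 11.2 and 11.5 in shNFIB and 8.92 and 4.91 in shKDM4D cells. It was lower at day 5 in shControl and shKDM4D cells (-0.51 (-0.62 to -0.40) and -0.86 (-0.98 to -0.74)) but nearly level in shNFIB cells (0.03 (-0.06 to 0.13)). Its exon model of 8949 bases is long and may take in intron sequence that carries snoRNAs. The same may hold for other members that enclose snoRNA genes, such as *Gnl3* with 6101 and *Nop58* with 10758 bases. *Rrn3* (chr16:13780708-13814839), which encodes TIF-IA, had an RPKM of 12.3 at day 0 and 9.69 at day 5 in shControl, 12.3 and 9.49 in shMLL1, 17.9 and 16.4 in shNFIB and 15.6 and 12.3 in shKDM4D cells. Its levels on both days were higher in shNFIB than in shControl cells, with ratios of 0.53 (0.43 to 0.64) and 0.76 (0.63 to 0.89), and in shMLL1 cells they were close to those of shControl cells.

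The genes of the small nucleolar RNPs had the lowest group medians in shControl cells. The median log2 ratio of the 3 box C/D genes was -1.18 in shControl, -0.88 in shMLL1, -0.47 in shNFIB and -1.03 in shKDM4D cells. *Fbl* (chr7:28169710-28179269), which encodes fibrillarin, the methyltransferase of these particles, had an RPKM of 16.7 at day 0 and 6.37 at day 5 in shControl, 23.3 and 10.7 in shMLL1, 18.1 and 13.1 in shNFIB and 13.3 and 6.51 in shKDM4D cells. All 4 values of day 5 lay below the 4 of day 0, and the ratio was -1.39 (-1.53 to -1.25) in shControl, -1.12 (-1.2 to -1.03) in shMLL1, -0.47 (-0.59 to -0.35) in shNFIB and -1.03 (-1.17 to -0.88) in shKDM4D cells. *Nop56* (chr2:130274430-130279313), the gene of a scaffold protein of the same particles, was the most abundant, with 30.6 at day 0 and 13.5 at day 5 in shControl, 46.6 and 25.4 in shMLL1, 38.5 and 28.9 in shNFIB and 41.9 and 18.6 in shKDM4D cells. Its shControl value at day 5 was the lowest of the 8, and the log2 ratio to it was 1.10 (0.99 to 1.21) in shNFIB and 0.91 (0.82 to 1.01) in shMLL1 cells on that day. *Nop58*, its partner, ranged from 9.22 to 24.5 and was past 1.5-fold lower in shControl, shKDM4D and shMLL1 cells.

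Among the box H/ACA genes, all but *Nop10* were past 2-fold lower at day 5 in shControl cells. The group had medians of -1.28, -0.94, -0.71 and -1.16 in shControl, shKDM4D, shNFIB and shMLL1 cells. *Dkc1* (chrX:75095854-75109777), which encodes dyskerin, the pseudouridine synthase, had an RPKM of 18.5 at day 0 and 7.62 at day 5 in shControl, 28.9 and 10.7 in shMLL1, 19.0 and 9.76 in shNFIB and 17.2 and 7.80 in shKDM4D cells. *Nhp2* (chr11:51619735-51623714), a core protein of the particle, had 28.6 at day 0 and 11.7 at day 5 in shControl, 46.6 and 18.6 in shMLL1, 24.6 and 15.0 in shNFIB and 24.6 and 9.65 in shKDM4D cells. Both were well below their day 0 level in every line, with ratios from -0.96 in shNFIB to -1.44 in shMLL1 cells for *Dkc1* and from -0.71 in shNFIB to -1.35 in shKDM4D cells for *Nhp2*. *Gar1* (chr3:129824912-129831396), the gene of another core protein, was the scarcest of the group, with 10.6 at day 0 and 4.01 at day 5 in shControl, 14 and 6.35 in shMLL1, 11.2 and 6.52 in shNFIB and 8.09 and 5.56 in shKDM4D cells. Its ratio was -1.41 (-1.69 to -1.13) in shControl but -0.54 (-0.81 to -0.27) in shKDM4D cells, and these intervals did not overlap. *Nop10* (chr2:112261926-112263269), the smallest core protein's gene, had 28.2 at day 0 and 32.5 at day 5 in shControl, 35.9 and 29.7 in shMLL1, 36.5 and 38.4 in shNFIB and 37.9 and 37.4 in shKDM4D cells. It did not follow the other 3 core genes, with a ratio of 0.20 (0.05 to 0.35) in shControl and -0.27 (-0.38 to -0.16) in shMLL1 cells. *Nolc1* (chr19:46075863-46085530), which encodes Nopp140, a chaperone of snoRNPs, had 30.4 at day 0 and 13.5 at day 5 in shControl, 53.1 and 23.8 in shMLL1, 37.6 and 23.5 in shNFIB and 33.1 and 17.3 in shKDM4D cells. All 4 of its values at day 0 exceeded all 4 at day 5, with ratios from -1.17 in shControl to -0.68 in shNFIB cells.

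The abundant nucleolar proteins were lower at day 5 in every line. *Npm1* (chr11:33152287-33163206), which encodes nucleophosmin, was the most abundant member, with an RPKM of 416 at day 0 and 251 at day 5 in shControl, 551 and 344 in shMLL1, 296 and 271 in shNFIB and 400.0 and 254 in shKDM4D cells. In shNFIB cells it stayed almost level, at -0.13 (-0.16 to -0.09), from a day 0 value with a log2 ratio of -0.49 (-0.52 to -0.46) to that of shControl cells. Processed pseudogenes of *Npm1* are known, and how reads with several matches were placed is not given in the sources used here. *Ncl* (chr1:86344719-86359400), the gene of nucleolin, had 165 at day 0 and 103 at day 5 in shControl, 247 and 123 in shMLL1, 184 and 121 in shNFIB and 232 and 113 in shKDM4D cells. It passed 2-fold in shKDM4D (-1.05 (-1.07 to -1.02)) and shMLL1 cells (-1.01 (-1.03 to -0.99)) but not in shControl cells (-0.68 (-0.70 to -0.65)). *Ddx21* (chr10:62580251-62602281), an RNA helicase gene, had 36.7 at day 0 and 12.7 at day 5 in shControl, 58.4 and 18.2 in shMLL1, 45.6 and 22.3 in shNFIB and 28.3 and 12.9 in shKDM4D cells. It was past 2-fold lower at day 5 in all 4 lines and gave the lowest ratio of any member in shControl (-1.54 (-1.63 to -1.45)) and shMLL1 cells (-1.68 (-1.73 to -1.63)). *Gnl3* (chr14:31012433-31019152), which encodes nucleostemin, a GTP-binding protein of proliferating stem cells, was the scarcest, with 13.2 at day 0 and 7.15 at day 5 in shControl, 16.6 and 8.77 in shMLL1, 16.6 and 12.9 in shNFIB and 13.4 and 7.25 in shKDM4D cells. Its ratio was nearly the same in shControl, shKDM4D and shMLL1 cells (-0.89, -0.89 and -0.92) and -0.36 (-0.46 to -0.25) in shNFIB cells.

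The assembly factors of the large subunit were all lower at day 5 in shControl and shKDM4D cells, with group medians of -0.73 and -0.68, and 9 of 10 were lower in shNFIB (-0.30) and shMLL1 cells (-0.53). *Bop1*, *Pes1* and *Wdr12* encode the 3 proteins of the PeBoW complex, which works on the large subunit rRNA. *Bop1* (chr15:76452989-76477277) had an RPKM of 18.4 at day 0 and 7.16 at day 5 in shControl, 25.2 and 9.49 in shMLL1, 11.7 and 9.73 in shNFIB and 16.1 and 8.40 in shKDM4D cells. *Pes1* (chr11:3963975-3980004), the most abundant of the 10, had 39.2 at day 0 and 27.2 at day 5 in shControl, 47.4 and 34.1 in shMLL1, 25.8 and 23.1 in shNFIB and 34.7 and 25 in shKDM4D cells. *Wdr12* (chr1:60069785-60098645), the scarcest, had 2.76 at day 0 and 2.07 at day 5 in shControl, 3.42 and 3.24 in shMLL1, 3.01 and 2.99 in shNFIB and 3.31 and 1.88 in shKDM4D cells. The 3 genes of this complex thus differed in how far they moved, with ratios in shControl cells of -1.36 (-1.52 to -1.2), -0.53 (-0.62 to -0.44) and -0.42 (-0.58 to -0.25). In shNFIB cells *Bop1* started from a day 0 value below that of shControl cells, with a ratio of -0.65 (-0.79 to -0.52), and its change was -0.26 (-0.44 to -0.09). *Nop2* (chr6:125131909-125144753), an rRNA methyltransferase gene, had 15.1 at day 0 and 6.79 at day 5 in shControl, 23.4 and 10.7 in shMLL1, 13.3 and 10.1 in shNFIB and 12.9 and 6.74 in shKDM4D cells. It was past 2-fold lower in shControl (-1.15 (-1.32 to -0.98)) and shMLL1 cells (-1.13 (-1.23 to -1.03)). *Nip7* (chr8:107056877-107060931), needed for large subunit maturation, had 8.25 at day 0 and 6.63 at day 5 in shControl, 9.05 and 10.5 in shMLL1, 6.95 and 9.40 in shNFIB and 7.96 and 7.30 in shKDM4D cells. It was lower at day 5 in shControl cells (-0.32 (-0.50 to -0.14)) and higher in shNFIB (0.44 (0.24 to 0.63)) and shMLL1 cells (0.21 (0.10 to 0.33)). The remaining members of this group, *Nop16*, *Rrp1b*, *Rrs1*, *Noc2l* and *Noc3l*, were lower at day 5 in all 4 lines, with ratios between -0.93 (*Noc2l* in shControl cells) and -0.29 (*Nop16* in shNFIB cells), and none passed 2-fold.

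The small subunit factors had medians of -1.02 in shControl, -0.82 in shMLL1, -0.27 in shNFIB and -0.71 in shKDM4D cells. In shControl cells 5 of the 10 were past 2-fold lower. *Utp20* (chr10:88746607-88826804), a very large protein of the small subunit processome, had an RPKM of 9.10 at day 0 and 3.21 at day 5 in shControl, 12.8 and 4.42 in shMLL1, 10.9 and 4.94 in shNFIB and 6.24 and 3.0 in shKDM4D cells. It was past 2-fold lower in all 4 lines, and its ratio of -1.14 (-1.26 to -1.03) was the lowest of any member in shNFIB cells. *Pno1* (chr11:17203198-17211568), needed for late maturation of the small subunit rRNA, had 24 at day 0 and 8.53 at day 5 in shControl, 26.1 and 15.1 in shMLL1, 15.2 and 14.2 in shNFIB and 20.7 and 10.5 in shKDM4D cells. Its ratio was -1.49 (-1.68 to -1.30) in shControl and -0.11 (-0.30 to 0.09) in shNFIB cells, where the day 0 value was already low, with a ratio of -0.65 (-0.81 to -0.50) to that of shControl cells. *Bysl* (chr17:47599331-47611492), the gene of bystin, had 9.43 at day 0 and 3.77 at day 5 in shControl, 12.4 and 5.12 in shMLL1, 8.61 and 5.77 in shNFIB and 8.11 and 4.35 in shKDM4D cells. It was lower at day 5 in every line and past 2-fold in shControl (-1.32 (-1.52 to -1.13)) and shMLL1 cells (-1.27 (-1.40 to -1.15)). *Rrp9* (chr9:106475963-106485424), which encodes a protein of the U3 snoRNP, had 9.24 at day 0 and 3.81 at day 5 in shControl, 12.7 and 6.82 in shMLL1, 8.73 and 7.36 in shNFIB and 7.35 and 4.42 in shKDM4D cells. The ratio was -1.28 (-1.5 to -1.06) in shControl and -0.25 (-0.45 to -0.04) in shNFIB cells. *Rrp12* (chr19:41862851-41896173), the scarcest of the group, had 4.14 at day 0 and 1.74 at day 5 in shControl, 6.30 and 3.15 in shMLL1, 5.50 and 3.76 in shNFIB and 3.7 and 2.29 in shKDM4D cells. It was past 2-fold lower in shControl (-1.25 (-1.53 to -0.98)) and close to 2-fold in shMLL1 cells (-1.0 (-1.15 to -0.85)).

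The most abundant small subunit gene, *Wdr43* (chr17:71615895-71659031), a subunit of the processome, had an RPKM of 41.2 at day 0 and 24.5 at day 5 in shControl, 63.6 and 35.3 in shMLL1, 49.4 and 35.8 in shNFIB and 40.8 and 26.3 in shKDM4D cells. *Wdr75* (chr1:45795166-45823619), from the same subcomplex, had 7.27 at day 0 and 4.71 at day 5 in shControl, 10.4 and 8.05 in shMLL1, 9.13 and 8.41 in shNFIB and 10.3 and 6.55 in shKDM4D cells. Neither passed 2-fold in any line, and *Wdr75* was above shControl cells in all 3 knockdown lines on both days. *Utp4*, also of that subcomplex, was the exception among the 10, with a ratio of -0.01 (-0.14 to 0.13) in shControl, -0.16 (-0.25 to -0.07) in shMLL1, 0.32 (0.15 to 0.48) in shNFIB and 0.05 (-0.08 to 0.18) in shKDM4D cells. *Nop14* and *Noc4l* were lower at day 5 in all 4 lines, with ratios from -0.79 (*Noc4l* in shControl cells) to -0.20 (*Noc4l* in shNFIB cells). In the Pol I group, *Polr1a*, the gene of the largest subunit, was lower in all 4 lines, from -0.92 in shControl to -0.54 in shNFIB cells, and *Polr1e* from -0.54 to -0.09. *Polr1c*, whose product also serves RNA polymerase III, was lower in shControl, shKDM4D and shMLL1 cells and 0.08 (-0.11 to 0.27) in shNFIB cells.

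The table also holds rows that match rRNA. Whether rRNA was removed before sequencing is not given in the sources used here, and the kit is named as an mRNA kit in the labels and as a stranded RNA kit in the methods, so these rows may hold rRNA left over in the libraries rather than its level in the cells. Row CT010467.1 (chr17:39846353-39848827 on the minus strand, annotated as rRNA) and row AY036118 (chr17:39847113-39848035, minus strand, annotated as lincRNA) lie on top of each other on chromosome 17, so a read can fall in both, and reads from any rRNA gene copy may be placed there. AY036118 took 2.78% at day 0 and 0.866% at day 5 in shControl, 3.04% and 0.885% in shMLL1, 2.27% and 0.985% in shNFIB and 2.21% and 0.898% in shKDM4D cells of the mapped reads. CT010467.1 took 7.47% at day 0 and 2.27% at day 5 in shControl, 7.43% and 2.19% in shMLL1, 6.03% and 2.63% in shNFIB and 5.74% and 2.32% in shKDM4D cells. In each row all 4 day 0 values exceeded all 4 day 5 values by more than 2-fold. The log2 ratio of day 5 to day 0 for AY036118 was -1.68 in shControl, -1.78 in shMLL1, -1.21 in shNFIB and -1.30 in shKDM4D cells, and for CT010467.1 it was -1.72, -1.77, -1.2 and -1.31. In each line both rows thus went in the same direction as the members' median and further. Over the 4 lines limma gave an adjusted p of 0.00122 for AY036118 and 0.00123 for CT010467.1, with mean changes of -1.49 and -1.5. The part of rRNA carried over through the library preparation was not tested.

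**Figure D3:**
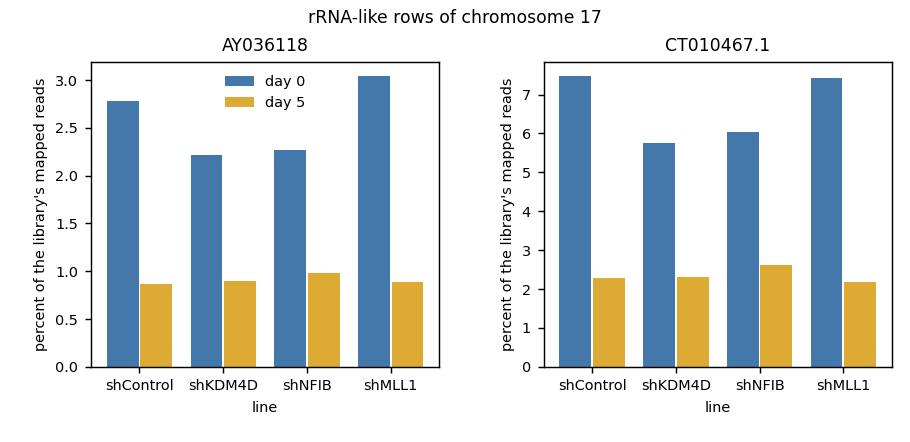
The share of each library's mapped reads in the rRNA-like rows AY036118 (left) and CT010467.1 (right), in percent, by line (x axis), with blue bars for day 0 and yellow bars for day 5 (1 library each). Every day 5 bar is below 0.5 of the day 0 bar of its line.

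The knockdown lines were next set beside shControl cells on the same day. All 3 comparisons of a day use the same shControl library, so what is particular to that library enters each of them. At day 0 the shKDM4D line was close to shControl cells, with a median log2 ratio of -0.05 (-0.00 for all genes) and 13 of 40 members higher (background 49.6%). None was past 1.5-fold in either direction (background 5.41% higher and 8.76% lower) or past 2-fold (background 6.26%). The highest ratio was that of *Wdr75* (0.50 (0.37 to 0.63)) and the lowest that of *Utp20* (-0.55 (-0.64 to -0.45)). In shNFIB cells the median was 0.09 (0.03 for all genes) and 23 members were higher (background 52.8%). No member was past 2-fold (background 9.03%) or past 1.5-fold higher (background 8.76%), and 3, namely *Pno1*, *Bop1* and *Pes1*, were past 1.5-fold lower (background 12.3%). On the ratio to *Gapdh*, which had an RPKM of 247 in shControl, 159 in shNFIB and 326 in shKDM4D cells, the median at day 0 was 0.73 in shNFIB and -0.45 in shKDM4D cells.

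In the shMLL1 line the members were higher already at day 0. There 38 of 40 members were higher than in shControl cells, against 42.4% of all genes, and the median ratio was 0.42 against -0.07. None was past 2-fold (background 9.13%), but 9 were past 1.5-fold higher (22.5%, background 4.74%) and none past 1.5-fold lower (background 16%). The highest ratio was that of *Nolc1* (0.81 (0.75 to 0.86)), followed by *Nhp2* (0.70 (0.59 to 0.82)), and the lowest that of *Taf1b* (-0.27 (-0.41 to -0.12)). The members' median remained above 0 on each other scale tried, with 0.21 as the lowest value, on the ratio to *Gapdh*. All the box C/D and box H/ACA genes were higher than in shControl cells, with group medians of 0.56 and 0.64.

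At day 5 the members were higher in shNFIB and shMLL1 cells than in shControl cells. In shNFIB cells 36 of 40 were higher (background 57.9%), with a median of 0.54 against 0.09 for all genes. Past 1.5-fold higher were 15 (37.5%, background 14.7%), none was past 1.5-fold lower (background 11.7%), and the 4 past 2-fold (10%, background 11.2% in either direction) were *Rrp12* (1.11 (0.81 to 1.42)), *Nop56* (1.10 (0.99 to 1.21)), *Fbl* (1.04 (0.88 to 1.2)) and *Taf1d* (1.02 (0.91 to 1.14)). The share past 2-fold was thus near the background, whereas the share past 1.5-fold was above it. *Polr1b* gave the lowest ratio, -0.31 (-0.78 to 0.14). In shMLL1 cells 37 were higher (background 57.6%), with a median of 0.53 against 0.07, and 18 were past 1.5-fold higher (45%, background 12.5%) and none past 1.5-fold lower (background 8.77%) or past 2-fold (background 9.28%). On the ratio to *Gapdh* the median was 0.17 in shMLL1 and 0.59 in shNFIB cells. In shMLL1 cells *Nop56* was the highest (0.91 (0.82 to 1.01)) and *Nop10* the lowest (-0.13 (-0.26 to 0.01)). In shKDM4D cells 27 were higher (background 50.9%), the median was 0.08 against 0.01, and none was past 1.5-fold higher (background 5.23%), past 1.5-fold lower (background 9.4%) or past 2-fold (background 6.46%). *Wdr75* was again the highest (0.48 (0.30 to 0.65)) and *Nhp2* the lowest (-0.28 (-0.54 to -0.02)).

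The difference of each knockdown line from shControl cells over both days was tested in the same limma fit, where both days stand in for repeats and the shControl libraries are shared. No member passed an adjusted p under 0.05 in any line, where 0.00869% of all genes did in shMLL1, 0.304% in shNFIB and 0.0261% in shKDM4D cells. The smallest limma adjusted p of a member was 0.0923, for *Rrn3* in shNFIB cells, with a mean difference of 0.60 (SE 0.111) and higher values on 2 of 2 days. At an unadjusted p under 0.05 were 23 members in shMLL1, 16 in shNFIB and 2 in shKDM4D cells, against 14.7%, 21.4% and 11.1% of all genes.

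**Figure D4:**
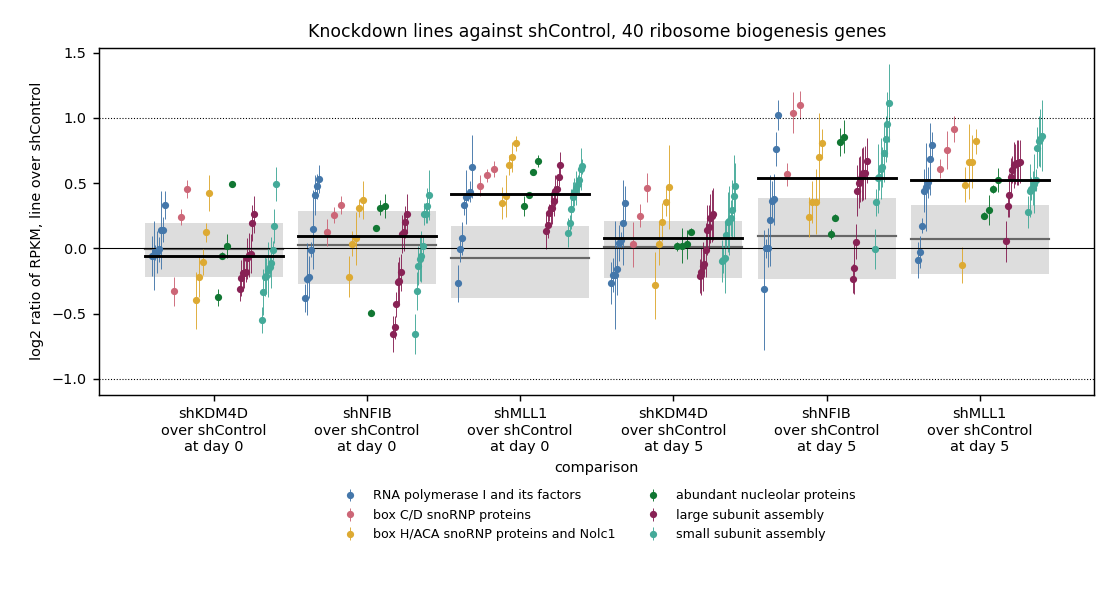
The log2 ratio of RPKM in each knockdown line to shControl on the same day (y axis) for the 40 genes, by comparison (x axis), with points coloured by role, 95% counting intervals and a black line at the members' median; grey boxes span the quartiles of all expressed genes around their median, and dotted lines mark 2-fold. The black line is above the grey box in shMLL1 cells on both days (0.42 and 0.53) and in shNFIB cells at day 5 (0.54), and near 0 in shKDM4D cells (-0.05 and 0.08).

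On the RPKM scale the shNFIB and shMLL1 lines had similar medians at day 5 and different ones at day 0, whereas on the ratio to *Gapdh* the medians of day 5 were apart and the changes over time were not. These differences of changes have no test, since each rests on 4 single libraries. The change from day 0 to day 5 in shNFIB cells minus that in shControl cells had a median of 0.47 over the members and 0.07 over all genes. It was above 0 for 37 of the 40 members (background 56%), but on the ratio to *Gapdh* this median was -0.12. The largest differences were those of *Pno1*, at 1.39 (1.12 to 1.65), of *Bop1*, at 1.10 (0.86 to 1.33), and of *Rrp9*, at 1.03 (0.73 to 1.33), and the lowest was that of *Polr1b*, at -0.46 (-0.99 to 0.07). For *Pno1* and *Bop1* a day 0 value below that of shControl cells is part of this difference. In shMLL1 cells the median difference was 0.05 over the members, on the side of 0 that the scale sets (-0.06 with median-of-ratios scaling and -0.09 on the ratio to *Gapdh*), and 0.15 over all genes. It was above 0 for 26 of 40 members (65%), which is near the background of 64.2%. It ranged from -0.48 (-0.66 to -0.29) for *Nop10* to 0.70 (0.48 to 0.92) for *Pno1*. In shKDM4D cells it was 0.07 over the members and 0.01 over all genes, and above 0 for 30 members (background 51.8%), but 0.51 on the ratio to *Gapdh*, the highest of the 3 lines on that scale. *Gar1* had the largest difference, 0.87 (0.48 to 1.25).

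**Figure D5:**
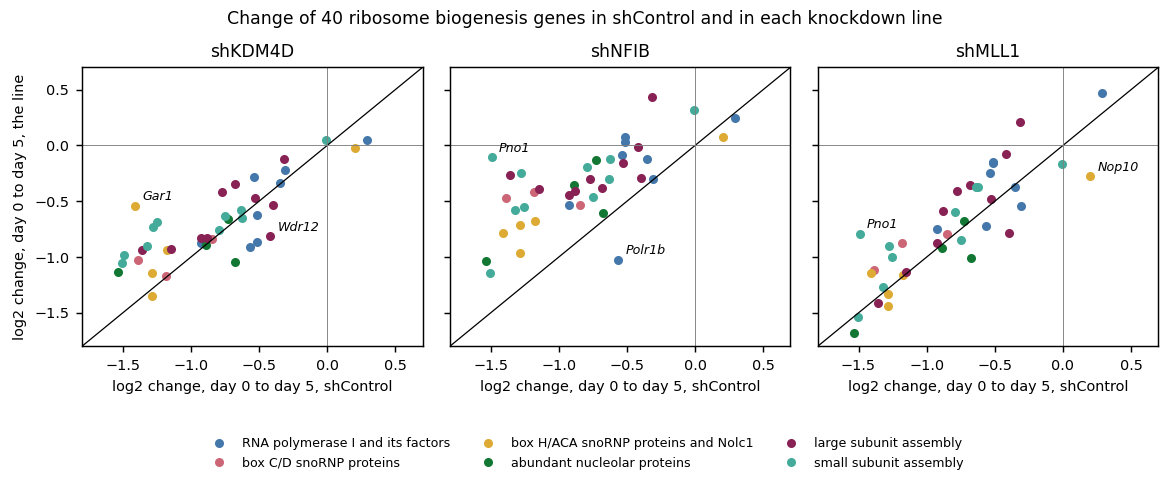
The log2 change from day 0 to day 5 of the 40 genes in shControl cells (x axis) and in each knockdown line (y axis, 1 panel per line), coloured by role, with a black line where both are equal and the genes with the highest and lowest difference named. The points lie along the line in shKDM4D and shMLL1 cells (median differences 0.07 and 0.05) and mostly above it in shNFIB cells (0.47).

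The changes of the members were compared between lines that share no library. Across the 40 genes, Pearson's r between the log2 changes was 0.80 for shControl and shKDM4D, 0.69 for shControl and shNFIB, 0.86 for shControl and shMLL1, 0.69 for shKDM4D and shNFIB, 0.76 for shKDM4D and shMLL1 and 0.83 for shNFIB and shMLL1 cells. Over 11247 expressed genes the same values were 0.88, 0.72, 0.77, 0.77, 0.78 and 0.87. These describe genes of the same libraries, which are not independent replicates, and the members' value was the higher in 1 of the 6 pairs.

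Other genes of the pathway were mostly lower at day 5 too, with a median nearer to 0. A list of 98 further ribosome biogenesis genes had 89 lower (90.8%, background 48%) and 9 higher at day 5 in shControl cells, with a median of -0.45. The 8 past 2-fold lower (8.16%) were near the background of 8.57%, while the 34 past 1.5-fold lower (34.7%) were above that of 17.5%. Of the 97 that passed the RPKM limit, 49 were lower over the 4 lines by limma at an adjusted p under 0.05 and 2 higher. Over all genes 20.7% were lower and 28.1% higher by this test. The medians were -0.35 in shMLL1, -0.13 in shNFIB and -0.37 in shKDM4D cells, where 77 (78.6%), 67 (68.4%) and 91 (92.9%) of the 98 were lower. The backgrounds there were 40.9%, 43.5% and 47.9%. By role, the shControl medians were -0.46 for 38 small subunit factors, -0.50 for 44 large subunit factors, -0.51 for 8 snoRNP assembly factors and -0.13 for 8 further RNA polymerase I genes. *Heatr1*, a small subunit and Pol I factor, was the lowest of the 98 in shControl cells, with a ratio of -1.30 (-1.47 to -1.12), and *Taf1a*, another SL1 gene, the highest, with 0.48 (0.12 to 0.85). Against shControl cells at day 5 the 98 genes had medians of 0.05, 0.38 and 0.39 in shKDM4D, shNFIB and shMLL1 cells. *Mphosph10*, a protein of the U3 snoRNP, gave the highest ratio in shNFIB (1.31 (1.14 to 1.48)) and *Nle1*, a large subunit factor, in shMLL1 cells (1.02 (0.75 to 1.29)). The lowest there were *Nsa2* (-0.23 (-0.28 to -0.18)) and *Imp4* (-0.13 (-0.29 to 0.03)), and in shKDM4D cells the range went from *Wdr18* (-0.52 (-0.73 to -0.30)) to *Ddx31* (0.62 (0.30 to 0.94)).

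Genes of cell division were lower and those of the MYC network went both ways at day 5. All 12 proliferation markers were lower at day 5 in every line and passed limma at an adjusted p under 0.05 over the 4 lines, and their summed RPKM went from 480.2 to 182 in shControl, from 639.7 to 232 in shKDM4D, from 639 to 282 in shNFIB and from 665 to 279 in shMLL1 cells. Their medians were -1.51, -1.59, -1.07 and -1.35 on the log2 scale, so they were lower by more than the members in each line. Against shControl cells, their median at day 0 was 0.54 in shMLL1, 0.57 in shNFIB and 0.46 in shKDM4D cells, and at day 5 it was 0.70, 0.77 and 0.38. *Myc* had an RPKM of 12.4 at day 0 and 5.41 at day 5 in shControl, 15.0 and 6.45 in shMLL1, 13.6 and 8.60 in shNFIB and 14.6 and 8.46 in shKDM4D cells. It was lower at day 5 in all 4 lines (limma adjusted p = 0.00241). Partners of MAX that oppose MYC went both ways. *Mxd4* was higher at day 5 in all 4 lines, with 8.87 at day 0 and 24.8 at day 5 in shControl, 4.51 and 13.9 in shMLL1, 9.22 and 17.5 in shNFIB and 8.07 and 25.1 in shKDM4D cells, and *Mxd1* and *Mxi1* were too (limma adjusted p = 0.00132, 0.00254 and 0.00314). *Mxd3* was lower in all 4 lines (limma adjusted p = 0.00499), with 13.0 at day 0 and 6.66 at day 5 in shControl, 10.9 and 7.64 in shMLL1, 14.1 and 9.27 in shNFIB and 20.4 and 9.33 in shKDM4D cells. *Mnt* had a lower RPKM at day 5 in all 4 lines but did not pass (limma adjusted p = 0.0621), with 9.86 at day 0 and 7.39 at day 5 in shControl, 8.95 and 8.13 in shMLL1, 10.2 and 7.65 in shNFIB and 10.0 and 9.33 in shKDM4D cells. The part of cell division, of *Myc* or of the share of fat cells in the members' levels was not tested.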

How the data were processed

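Total RNA of the 8 samples was made into libraries (SMARTer stranded kit) and sequenced on a HiSeq 2500 by the authors. Alignment to GRCm38 was done in CLC Genomics Workbench 11.0.1 with its costs set to 2 for a mismatch and 3 for an insertion or deletion, and with both the length and the similarity limits at 0.8. The authors deposited the RPKM of 41325 gene symbols per library. Whether counting used strand, and how reads with several matches were placed, is not given in the sources used here.

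From the deposited RPKM, whole reads were recovered with the exon lengths of GENCODE M21. Of values worth 1 to 1000 reads, 95.8% to 96.5% per library lay no more than 0.02 from a whole number. For 4 members (*Nolc1*, *Rrp1b*, *Rrp12* and *Wdr43*) the annotated length gave no whole reads, and the shortest length that did so in all 8 libraries was used, which bears on their intervals and not on their ratios. Ratios are of RPKM with no pseudocount, and exact Clopper-Pearson intervals (95%) were taken on the reads, with a normal approximation on the log scale for differences of changes. The intervals leave out variation between cultures and clones and treat reads as independent molecules. A gene was called past 2-fold, the study's fold limit, or past 1.5-fold. The study also required an FDR under 0.05 and used quantile-normalized values, so its calls and those given here are not alike. Single ratios, with 1 library on each side, were not tested. The change over the 4 lines, and each line over both days, were tested with limma 3.58.1 in R 4.3.3 (line plus day, eBayes with trend, log2(RPKM + 1), Benjamini-Hochberg adjustment over 11513 genes). This fit was added after the values were seen. It leaves 3 residual degrees of freedom per gene, and through eBayes its p-values also draw on the spread of the other genes. Pairing by line comes from the labels. Other scales tried were quantile normalization, median-of-ratios scaling, RPKM without the rRNA-like rows, the ratio to *Gapdh* and 1 added to each RPKM. The procedure was tested on simulated data. Python 3.11.15 with numpy 2.4.6, pandas 2.3.3 and scipy 1.17.1 was used.

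The members, their roles and all other lists were chosen with earlier results of these data known. Values in all libraries are given for the most and least abundant member of each role, the highest and lowest ratio of each comparison and each member past 2-fold, 28 genes in all. *Utp11l* was matched as *Utp11*, and the U3 RNA genes *Rnu3a* and *Rnu3b1* were not matched.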

Additional observations from a re-analysis of the deposited data

Results flagged for a closer look

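*Nip7* was lower at day 5 in shControl cells and higher in both shNFIB and shMLL1 cells, with counting intervals that excluded 0 in each. Its change from day 0 to day 5 was -0.32 (95% interval -0.50 to -0.14) in shControl, 0.44 (0.24 to 0.63) in shNFIB and 0.21 (0.10 to 0.33) in shMLL1 cells on the log2 scale. The change in shNFIB cells minus that in shControl cells was 0.75, and the one in shMLL1 cells minus that in shControl cells was 0.53. On the ratio to *Gapdh* the change in shNFIB cells was -0.13, so the opposite direction in this line depends on the scale. On that scale the change was 0.10 in shMLL1 and -0.29 in shControl cells. With quantile normalization the change in shMLL1 cells was only 0.03, so the size of the rise in that line depends on the scale too.

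*Nop10* was higher at day 5 in shControl cells, at 0.20 (0.05 to 0.35), and lower in shMLL1 cells, at -0.27 (-0.38 to -0.16), a difference of -0.48. Both kept their sign on each other scale tried. These differences were not tested, since each line has 1 library per day, and the same shControl libraries enter all of them.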

How the results depend on the processing

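With 1 library per line and day, variation between cultures of a line could not be measured. In the limma fit over the 4 lines, 32 members were lower and none higher at day 5, against 20.7% of all genes lower. The count was 22 on the ratio to *Gapdh* (12% of all genes). It was 32 to 34 on the other scales and with 0.1 added to each RPKM (21% to 27.1% of all genes). With no replicate block (no line term) it was 26 (15.4% of all genes), and with a line left out 25 to 31 (14.9% to 18%). No member passed in either direction against shControl cells over both days in any setting where that difference could be fitted. It could not be fitted without shControl, without the line term, or for a line that was itself left out. The members' median was below 0 at day 5 in all 4 lines on each of the 5 other scales. Its range was -0.89 to -0.72 in shControl, -0.86 to -0.32 in shKDM4D, -0.90 to -0.30 in shNFIB and -0.89 to -0.71 in shMLL1 cells. All 39 single-gene ratios past 2-fold kept their sign on those scales. Being chosen for a ratio past 2-fold, they had little room to change sign, so this does not show that their size is stable.

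The ratio to *Gapdh* had the largest effect, and it moves the median of all expressed genes by 0.47 for the change in shKDM4D cells and by -0.56 for that in shNFIB cells. It gave medians of -0.32 and -0.90 for these changes, -0.89 for that in shMLL1 cells, -0.45, 0.73 and 0.21 against shControl cells at day 0 in shKDM4D, shNFIB and shMLL1 cells, and 0.17 for shMLL1 cells on day 5. The difference of the changes from shControl cells became -0.092 in shMLL1, -0.12 in shNFIB and 0.51 in shKDM4D cells. The members past 2-fold lower were then 0 in shKDM4D and 15 in shNFIB cells, and 5 were past 2-fold higher in shNFIB cells at day 0. The shares of all genes past 2-fold on the other scales are not given here, so the member counts of this paragraph have no background. Median-of-ratios scaling brought the difference in shMLL1 cells to -0.056 and left 2 members past 2-fold higher in shNFIB cells at day 5, as did quantile normalization (2). Quantile normalization gave -0.89 and the RPKM without the rRNA-like rows -0.88 for the change in shMLL1 cells, and the latter gave 11 members past 2-fold lower in shKDM4D cells. Adding 1 to each RPKM gave a median of -0.63 in shKDM4D cells, 1 member past 2-fold lower in shNFIB cells and 1 past 2-fold higher there at day 5.

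With a limit of 1.5-fold, 27, 27, 8 and 25 members were lower at day 5 in shControl, shKDM4D, shNFIB and shMLL1 cells. These are 67.5%, 67.5%, 20% and 62.5% of the members, against 17.5%, 16.8%, 12.6% and 15.6% of all genes. In shMLL1 cells at day 0, 9 were higher (22.5%, background 4.74%). At day 5, 15 were higher in shNFIB (37.5%, background 14.7%) and 18 in shMLL1 cells (45%, background 12.5%). The causes of these shifts were not tested. The share of genes past 2-fold in either direction, between 6.26% and 27.3% in the 10 comparisons, lay between 25.3% and 46.6% with no filter on RPKM and between 3.44% and 23.6% for RPKM over 5.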

Other observations

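Rows that neighbour the rRNA-like rows were also lower at day 5 in all 4 lines, though by less than those rows in shNFIB and shMLL1 cells. They were looked at after the values were seen. *Gm42418* (chr17:39846958-39848788), which overlaps both rows on the opposite strand, had an RPKM of 91.7 at day 0 and 25.8 at day 5 in shControl cells, 91.4 and 35.9 in shMLL1, 45.5 and 29.5 in shNFIB and 52.0 and 20.1 in shKDM4D cells. *Gm26917* (chr17:39843013-39846341), next to them, went from 32.2 to 6.40 in shControl and from 28.5 to 8.92 in shMLL1 cells. It went from 19.1 to 14.1 in shNFIB and from 16.5 to 5.49 in shKDM4D cells. *Gm42418* lies within the span of CT010467.1, yet its RPKM of 91.7 in shControl cells at day 0 stood beside 30274 for that row. The counting thus did not give CT010467.1 and *Gm42418* the same reads, although the use of strand is not stated in the sources used here.

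The rRNAs of the mitochondrial ribosome did not follow one direction. *mt-Rnr2* had an RPKM of 1192 at day 0 and 1386 at day 5 in shControl cells, 1406 and 849.98 in shMLL1, 1132 and 1064 in shNFIB and 1203 and 984 in shKDM4D cells. *mt-Rnr1* went from 1050.1 to 1094 in shControl and from 1175 to 553 in shMLL1 cells. Of the RNAs that process rRNA, *Rmrp* was listed at 0 in all 8 libraries, and *Rpph1* stood between 0.321 and 1.62.

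In the MYC network, *Mxd1* went from 0.908 to 3.01 and *Mxi1* from 7.55 to 14.7 in shControl cells. *Mycn* was listed at 0 throughout, and *Max* stayed between 11.5 and 15.9.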
